A study of Homo sapiens with 4 samples.

Results

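A set of 30 genes of sterol and fatty acid synthesis was followed through the mRNA of a glioblastoma line selected for invasion of brain tissue. The genes were taken by symbol from a list of the pathway's enzymes and regulators, and all 30 were found among the 29387 genes listed in all 4 libraries. Sterol synthesis was represented by 18 enzymes, fatty acid synthesis and desaturation by 7, and regulation and sterol transport by 5.

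The libraries came from U87MG, an established human glioblastoma cell line. The tested populations were invasive 1 and invasive 2, which had entered organotypic brain slices, living brain sections kept in culture, and each was set against its own poorly invasive control, control 1 or control 2. All cells, controls included, derived from parental U87 grown in DMEM with 10% FBS, spent 1 week on slices in a neural stem cell medium to which FGF and EGF were added, and were expanded for 3 to 5 days after isolation. The sources used here name neither the expansion medium nor the species of the slices. Sample titles call the invasive populations clones, and whether each grew from a single cell is not given. Each population gave 1 library, so a difference within a pair has no replicate of its own, and what varies between the pairs includes any difference between their cultures, dates or sequencing. In such bulk libraries, fewer cells of a type and less RNA per cell cannot be told apart.

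Cells make cholesterol from acetyl-CoA through mevalonate and squalene, and they make fatty acids from acetyl-CoA through malonyl-CoA. Transcription of both branches is driven by sterol regulatory element-binding proteins, of which the SREBF2 product acts mainly on sterol genes and a form from SREBF1 mainly on fatty acid genes. When sterols are plentiful the INSIG proteins hold these factors in the endoplasmic reticulum, so the enzymes of a branch often move together. Cholesterol in the brain is made locally, because lipoproteins of the blood do not readily cross into it.

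Promoter windows from RefSeq (GRCh38.p14), 250 bases before to 50 after a gene's start, were read for 26 of the 30 genes, 36 windows in all. They are shown for 2 regulators of the SREBP family, SREBF1 (minus strand, chr17:17836937-17837236) and SREBF2 (plus strand, chr22:41832855-41833154), and for the genes on which the comparison of the pairs turned, INSIG1 (plus strand, chr7:155297628-155297927), MSMO1 (plus strand, chr4:165327419-165327718) and SCD (plus strand, chr10:100346983-100347282). Capitals mark matches on either strand to a core of the sterol regulatory element (TCACNCCAC), an E-box palindrome (TCACGTGA) or the NF-Y box (CCAAT, read as ATTGG on the other strand).
SREBF1: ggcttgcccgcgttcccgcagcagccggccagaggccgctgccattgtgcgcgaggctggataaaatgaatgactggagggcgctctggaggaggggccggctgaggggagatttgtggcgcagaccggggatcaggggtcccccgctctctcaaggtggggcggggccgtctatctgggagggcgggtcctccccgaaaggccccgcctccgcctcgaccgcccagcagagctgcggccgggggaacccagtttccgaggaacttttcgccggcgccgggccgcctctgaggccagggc
SREBF2: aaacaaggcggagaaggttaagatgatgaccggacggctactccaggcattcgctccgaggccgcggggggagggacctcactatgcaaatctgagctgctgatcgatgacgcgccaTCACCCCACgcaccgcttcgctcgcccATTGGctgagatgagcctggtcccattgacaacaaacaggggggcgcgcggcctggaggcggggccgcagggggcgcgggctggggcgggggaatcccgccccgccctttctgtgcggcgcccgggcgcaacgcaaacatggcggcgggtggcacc
INSIG1: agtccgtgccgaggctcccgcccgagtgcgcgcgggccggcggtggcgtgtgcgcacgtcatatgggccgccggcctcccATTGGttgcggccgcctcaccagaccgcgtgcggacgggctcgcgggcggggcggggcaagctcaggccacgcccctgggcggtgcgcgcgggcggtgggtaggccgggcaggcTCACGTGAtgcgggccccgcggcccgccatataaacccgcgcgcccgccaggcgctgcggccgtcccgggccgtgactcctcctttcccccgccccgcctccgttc
MSMO1: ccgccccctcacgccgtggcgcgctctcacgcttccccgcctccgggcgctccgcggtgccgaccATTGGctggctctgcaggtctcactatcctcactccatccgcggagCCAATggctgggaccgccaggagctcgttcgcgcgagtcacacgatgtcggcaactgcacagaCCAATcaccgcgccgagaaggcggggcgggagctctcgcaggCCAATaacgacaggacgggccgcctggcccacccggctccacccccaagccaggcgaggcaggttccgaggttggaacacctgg
SCD: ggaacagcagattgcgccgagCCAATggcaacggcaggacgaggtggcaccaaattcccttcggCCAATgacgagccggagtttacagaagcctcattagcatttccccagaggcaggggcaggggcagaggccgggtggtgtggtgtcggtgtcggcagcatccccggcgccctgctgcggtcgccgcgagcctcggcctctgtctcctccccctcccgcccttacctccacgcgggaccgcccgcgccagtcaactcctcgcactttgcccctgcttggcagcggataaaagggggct
The sterol regulatory element core lay in 1 of the 36 windows, that of SREBF2, and in 1.13% of 35116 windows of all genes. The E-box palindrome lay in 1 of 36, that of INSIG1, and in 0.98% of all windows. The NF-Y box lay in 24 of 36 windows (66.7%) and in 34.6% of all windows, and MSMO1 held 4 copies. No 2 of the capital runs overlap. A match is a match of letters and not a bound site. The 1 window read for SREBF1, at the outermost start of the gene, held none of the 3 motifs. Any start further inside the gene was not read.

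Polyadenylated RNA was counted per gene, with 15466900 and 13829871 total counts in invasive 1 and invasive 2 and 17817756 and 15444104 in control 1 and control 2. Levels are counts per 1e6 total counts (CPM), and differences are on the log2 scale after TMM scaling. All 30 genes passed the filter on low counts, with 34 to 13367 counts per library, and 27 had at least 100 counts in every library. GFAP, the intermediate filament of astrocytes, was at 0.129 and 0.145 CPM in invasive 1 and invasive 2 and 0.112 and 0.259 CPM in control 1 and control 2, near the level of 3 counts (0.168 to 0.217 CPM). AQP4, MOG, P2RY12 and CLDN5, defining genes of astrocytes, oligodendrocytes, microglia and endothelium, were at 0 in all 4 libraries, and most other markers of these cells were too low to test. The 7 astrocyte markers, 4 of them tested, summed to 284 to 314 CPM in invasive and 242 to 321 CPM in control populations, of which the gap junction gene GJA1 gave 242 to 245 CPM and 192 to 270 CPM. The 7 oligodendrocyte markers (1 tested) summed to 89.2 to 124 CPM in invasive and 87.6 to 106 CPM in control populations, and the 6 neuron markers (3 tested) to 33.6 to 46.3 CPM and 41.8 to 47.7 CPM. The 5 microglia markers in the files (1 tested) summed to 10.3 to 18.4 CPM in invasive and 11.3 to 21.7 CPM in control populations, and the 5 of endothelium (1 tested) to 10.3 to 11.8 CPM and 12.3 to 23.8 CPM. The part of these other markers in the results was not tested. A list of 10 cell cycle genes summed to 2580 CPM in invasive 1 against 2764 CPM in control 1, and to 1919 CPM in invasive 2 against 2326 CPM in control 2. Of these 10, 9 were lower in the invasive population of both pairs (median log2 fold change −0.21), and their part in the results below was not tested.

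No gene of the set passed the test for invasive against control populations, and the highest-ranked was SREBF1, lower in both invasive populations. With the pair as a block, edgeR's quasi-likelihood test called 0 of the 30 at an adjusted p under 0.05, against 0.274% of the 14231 genes tested (0.239% higher and 0.0351% lower), and DESeq2 also called 0. With p taken before adjustment, 1 gene was higher at 0.05 (FADS2, against 9.82% of all genes) and 2 were lower (SREBF1 and ELOVL6, against 8.41%). The smallest adjusted p of the set was 0.128, for SREBF1. The largest fold change was that of HSD17B7, at −0.56 on the log2 scale, on few counts. It was −1.01 without invasive 1 and −0.18 without invasive 2, in fits without a block, so the pair difference enters them. Within pair 1 no gene of the set reached 1.5-fold in either direction (11.8% of all genes did). Within pair 2 only SREBF1 and HSD17B7 did, both lower. Of all genes, 16.9% did so in either direction in pair 2, and 859 of 14231 were lower.

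Many of the genes had opposite directions in the pairs. In pair 1, 20 of the 30 genes were higher in the invasive population (50.5% of all genes tested) and 10 were lower. In pair 2, 8 were higher and 22 were lower (48.9% of all genes). The set held 14 genes that were higher in invasive 1 and lower in invasive 2 than their controls, against 17.0% of all genes. A further 6 were higher in both pairs (33.4% of all genes), 8 were lower in both (31.9%), and PMVK and ACLY were lower in pair 1 and higher in pair 2 (17.7%). Scaling by library totals alone turned the sign of SQLE in pair 1 and of no other gene, which made 15 of 30. Whether the pairs differ in effect has no test here, since a model with its own effect for each pair uses up all 4 libraries.

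**Figure D1:**
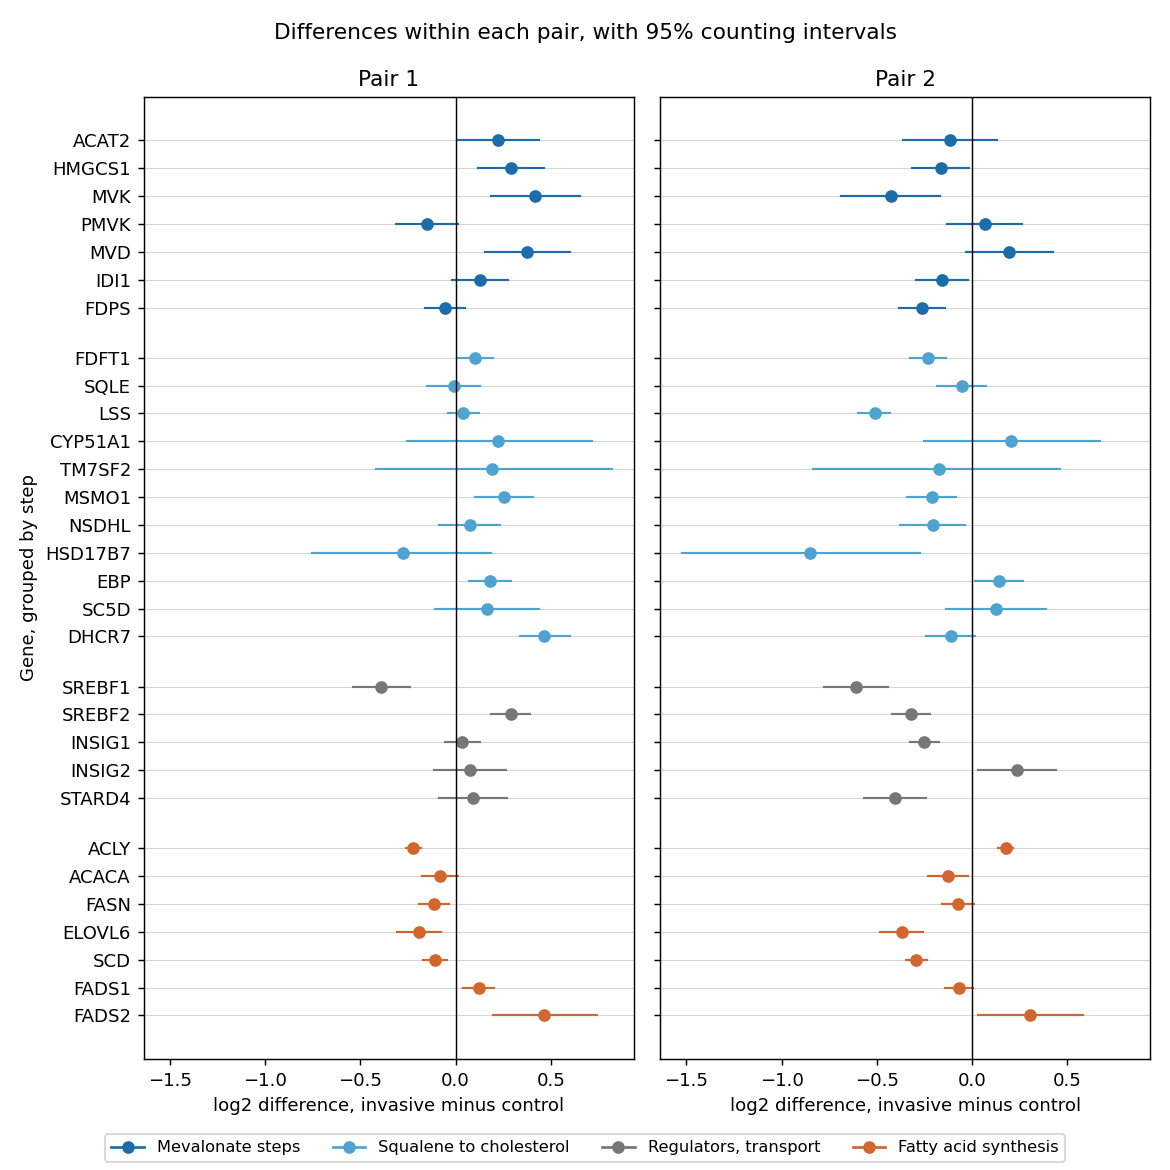
The log2 difference of each gene, invasive minus control, in pair 1 (left) and pair 2 (right), with genes in rows by step of the pathway and bars for the 95% counting interval. Points of the sterol enzymes lie mostly right of 0 in pair 1 (14 of 18) and left of 0 in pair 2 (13 of 18), and SREBF1 lies left of 0 in both.

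SREBF1 (ENSG00000072310, chromosome 17, 17810399 to 17837002, GRCh38) encodes SREBP1, the family member tied mainly to fatty acid genes. It had 618 counts in invasive 1 against 912 in control 1, and 461 in invasive 2 against 784 in control 2. These were 40.0 CPM against 51.2 CPM in pair 1 and 33.3 CPM against 50.8 CPM in pair 2. Both invasive libraries lay below both controls, which were nearly level with each other. The means were 36.6 ± 4.68 CPM in invasive and 51.0 ± 0.30 CPM in control populations (SD, n = 2 each). The log2 fold change was −0.50 ± 0.12 (SE), adjusted p = 0.128 in edgeR, and the log2 differences within the pairs were −0.39 (95% counting interval −0.54 to −0.24) and −0.61 (−0.78 to −0.44). Without the filter on low counts the adjusted p was 0.0012, the 1 setting in which a gene of the set was called for invasion, and over the other settings it ran up to 0.708.

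SREBF2 (chromosome 22, 41833079 to 41907308), which encodes SREBP2, the main activator of sterol synthesis, gave opposite directions in the pairs. It had 1583 counts (102.3 CPM) in invasive 1 against 1458 (81.8 CPM) in control 1, and 1353 counts (97.8 CPM) in invasive 2 against 1882 (121.9 CPM) in control 2. The invasive libraries were close to each other and lay between the controls. Pair 1 gave a log2 difference of 0.29 (0.19 to 0.39), pair 2 one of −0.32 (−0.42 to −0.22), and the joint log2 fold change was −0.016 ± 0.16 (SE, adjusted p = 0.970).

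INSIG1 (chromosome 7, 155297776 to 155310235) encodes a protein that retains SREBP precursors in the endoplasmic reticulum and is itself a sterol-regulated gene. Its counts were 1850 in invasive 1 against 2033 in control 1, and 2419 in invasive 2 against 3207 in control 2, or 119.6 CPM against 114.1 CPM and 174.9 CPM against 207.7 CPM. The library pairs stood apart and the populations did not: both libraries of pair 2 were above both of pair 1. The invasive against control log2 fold change was −0.11 ± 0.11 (SE, adjusted p = 0.637). INSIG2, a second retention protein (chromosome 2, 118088452 to 118110997), had 450 counts in invasive 1 against 481 in control 1, and 404 in invasive 2 against 382 in control 2. Its levels were 29.1 and 29.2 CPM in invasive 1 and invasive 2, and 27.0 and 24.7 CPM in control 1 and control 2. The invasive libraries lay above the controls without overlap, with a log2 fold change of 0.15 ± 0.12 (SE, adjusted p = 0.540). STARD4, which carries cholesterol between membranes, differed by 0.091 in pair 1 and −0.40 in pair 2. The 5 regulators and transport genes had medians of 0.074 (pair 1) and −0.32 (pair 2) on the log2 scale.

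**Figure D2:**
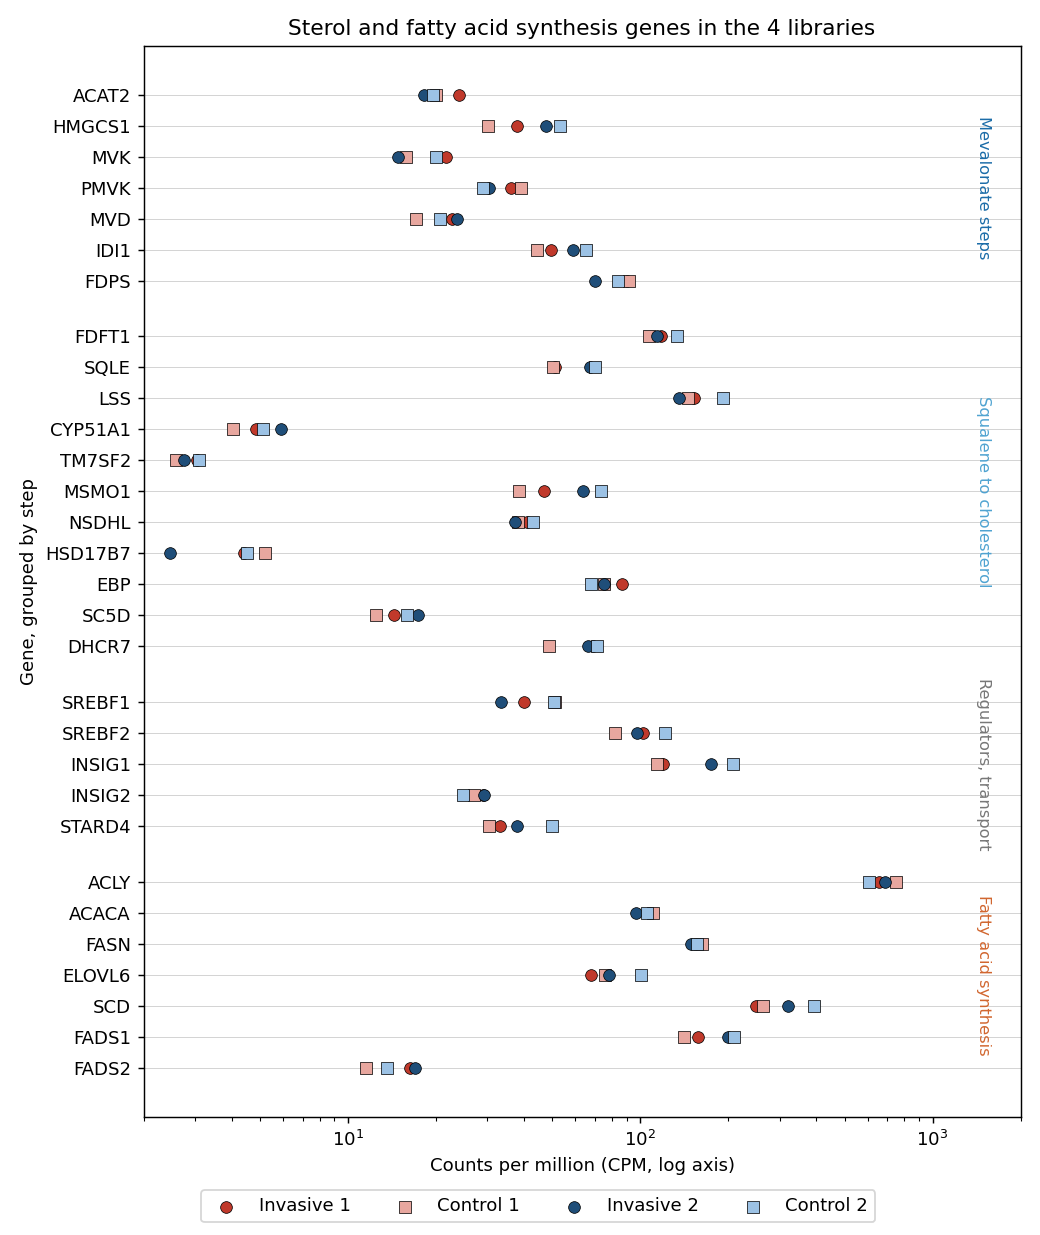
Level of each gene in the 4 libraries (CPM, log axis), with genes in rows by step of the pathway, circles for invasive and squares for control populations, red for pair 1 and blue for pair 2. INSIG1, MSMO1 and SCD separate by pair (blue right of red), whereas SREBF1 separates by population, with its circles left of its squares.

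The mevalonate steps held 7 genes. HMGCS1 (chromosome 5, 43289395 to 43313512), the synthase that makes HMG-CoA, had 585 counts in invasive 1 against 538 in control 1, and 657 in invasive 2 against 820 in control 2. Its levels were 37.8 CPM against 30.2 CPM in pair 1 and 47.5 CPM against 53.1 CPM in pair 2. The invasive libraries again lay between the controls, and the log2 fold change was 0.060 ± 0.14 (SE, adjusted p = 0.854). MVK, mevalonate kinase, was split most widely of the 7, with log2 differences of 0.42 in pair 1 and −0.43 in pair 2. MVD, the decarboxylase that completes the mevalonate steps to the isoprenoid unit, was higher in both (0.37 and 0.19), and both its invasive libraries lay above both controls. FDPS, which makes farnesyl diphosphate, was lower in both (−0.055 and −0.26). ACAT2, the thiolase at the start of the pathway, and the isomerase IDI1 were higher in pair 1 (0.22 and 0.13) and lower in pair 2 (−0.12 and −0.16). PMVK, which adds the second phosphate to mevalonate, was at −0.15 in pair 1 and 0.066 in pair 2. The exons of ACAT2 lie over genes of the opposite strand, TCP1 and SOD2 among them, for 52.3% of their length, and those of FDPS, HMGCS1 and IDI1 for 18.6%, 15.0% and 14.8%. The sources used here do not say whether reads were counted by strand, so reads of such partners cannot be told apart.

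Of the 11 genes from squalene to cholesterol, 6 were higher in pair 1 and lower in pair 2, 3 were higher in both pairs (CYP51A1, EBP and SC5D) and 2 were lower in both (SQLE and HSD17B7). SQLE (chromosome 8), the epoxidase that commits squalene to sterols, had 790 counts in invasive 1 against 896 in control 1, and 932 in invasive 2 against 1078 in control 2. Its levels were 51.1 CPM against 50.3 CPM and 67.4 CPM against 69.8 CPM, so the populations were level within each pair and the pairs were not. The log2 fold change was −0.033 ± 0.099 (SE, adjusted p = 0.891). HSD17B7 (chromosome 1, 162790702 to 162812817), a reductase of sterol demethylation, had few counts, 68 in invasive 1 against 93 in control 1, and 34 in invasive 2 against 70 in control 2. At 4.40 CPM against 5.22 CPM and 2.46 CPM against 4.53 CPM, its invasive libraries lay below its controls, and pair 2 was wider (−0.85, counting interval −1.52 to −0.28) than pair 1 (−0.27, −0.75 to 0.19). Its log2 fold change was −0.56 ± 0.27 (SE, adjusted p = 0.332), and a pseudogene copy, HSD17B7P2, could share its reads.

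LSS, the cyclase that forms lanosterol, had 152.9 CPM in invasive 1 against 145.2 CPM in control 1, and 135.3 CPM in invasive 2 against 192.5 CPM in control 2. Control 2 stood above the other 3 libraries, and the log2 differences were 0.041 for pair 1 and −0.51 for pair 2. DHCR7, the reductase of the final step, had the same directions, but its wider difference lay in pair 1. It had 69.1 CPM in invasive 1 against 48.8 CPM in control 1, and 66.1 CPM in invasive 2 against 71.2 CPM in control 2. Control 1 was the low library there, and the log2 differences were 0.47 and −0.11. MSMO1, the oxidase that removes the methyl groups at C4 of the sterol, was at 0.25 and −0.21, and FDFT1, squalene synthase, at 0.10 and −0.23. NSDHL, the dehydrogenase that acts with MSMO1, was at 0.074 in pair 1 and −0.21 in pair 2, and TM7SF2, a sterol C14 reductase with under 50 counts per library, at 0.19 and −0.17. EBP, the isomerase that moves a double bond in the sterol ring, was higher in both pairs beyond counting error (0.18 and 0.14). SC5D, the desaturase that follows it, had 0.16 and 0.13. CYP51A1, the lanosterol demethylase, had 0.22 and 0.20 at 72 to 82 counts per library, and other annotated genes share 79.4% of its exon length on the same strand.

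Of the 7 fatty acid genes, 5 kept 1 direction in both pairs (1 higher and 4 lower), against 7 of the 18 sterol genes (4 higher and 3 lower). Of all genes tested, 33.4% were higher in both pairs and 31.9% were lower in both, so 5 of 7 was near the share over all genes. ACACA (chromosome 17, 37084988 to 37406818), the acetyl-CoA carboxylase that makes malonyl-CoA, had 1654 counts (106.9 CPM) in invasive 1 against 1972 (110.7 CPM) in control 1, and 1342 counts (97.0 CPM) in invasive 2 against 1631 (105.6 CPM) in control 2. FASN (chromosome 17, 82078338 to 82098332), the synthase that builds palmitate, had 2387 counts (154.3 CPM) in invasive 1 against 2910 (163.3 CPM) in control 1, and 2057 counts (148.7 CPM) in invasive 2 against 2413 (156.2 CPM) in control 2. Both were slightly lower in each invasive library than in its control, and for FASN the groups did not overlap. The log2 fold changes were −0.10 ± 0.092 for ACACA and −0.095 ± 0.095 for FASN (SE, adjusted p = 0.586 and 0.634).

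SCD (chromosome 10, 100347124 to 100364834), which puts the first double bond into palmitate and stearate, had 3865 counts (249.9 CPM) in invasive 1 against 4690 (263.2 CPM) in control 1. In pair 2 it had 4436 counts (320.8 CPM) in invasive 2 against 6049 (391.7 CPM) in control 2. Each invasive library was below its own control, while invasive 2 was above control 1. The log2 fold change was −0.20 ± 0.10 (SE, adjusted p = 0.355), with −0.11 in pair 1 and −0.29 in pair 2. ELOVL6, the elongase of palmitate, had 68.1 CPM in invasive 1 against 76.0 CPM in control 1, and 78.2 CPM in invasive 2 against 100.9 CPM in control 2. It too was lower within each pair (−0.28 ± 0.099, SE, adjusted p = 0.221). FADS2, the delta-6 desaturase of polyunsaturated fatty acids, went the other way, with 16.3 CPM in invasive 1 against 11.5 CPM in control 1, and 16.9 CPM in invasive 2 against 13.7 CPM in control 2. Its invasive libraries lay above its controls without overlap (log2 fold change 0.39 ± 0.16, SE, adjusted p = 0.264). FADS1, the delta-5 desaturase beside it on chromosome 11, was at 0.12 in pair 1 and −0.070 in pair 2. ACLY, which supplies cytosolic acetyl-CoA to both branches, was at −0.22 and 0.18.

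Set side by side, the branches differed in pair 1 more than in pair 2. Over its 18 genes the sterol branch had a median log2 difference of 0.17 (pair 1) and −0.16 (pair 2), and the fatty acid branch −0.11 and −0.074, over 7 genes. All genes tested had medians of 0.0024 and 0.0082. The sterol median minus the fatty acid median was thus 0.28 in pair 1 and −0.086 in pair 2, a gap whose sign was not shared by the pairs. The pair 1 gap was smaller with means over the genes (0.17, with the fatty acid value at −0.019). Of the sterol genes, 10 of 18 were higher in pair 1 and lower in pair 2, and of the fatty acid genes 1 of 7 was (17.0% of all genes). In the joint fit the branch medians were 0.0084 for sterol and −0.095 for fatty acid genes. With 1 library per population within a pair, these medians carry no test.

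The sterol genes summed to 875 CPM (Wilson 95% interval 860 to 889) in invasive 1 against 786 CPM (773 to 799) in control 1, and to 851 CPM (836 to 866) in invasive 2 against 972 CPM (956 to 987) in control 2. The 2 invasive libraries were close, and the controls lay on either side of them. The fatty acid genes summed to 1412 CPM (1393 to 1430) in invasive 1 against 1517 CPM (1499 to 1535) in control 1, and to 1550 CPM (1529 to 1570) in invasive 2 against 1585 CPM (1565 to 1605) in control 2. ACLY alone gave 38.3% to 49.5% of that sum. It had 658.5 CPM in invasive 1 against 750.2 CPM in control 1, and 687.7 CPM in invasive 2 against 607.1 CPM in control 2. In pair 2 it thus went against the direction of the sum. Regulators and transport genes summed to 324 CPM in invasive 1 against 304 CPM in control 1, and to 373 CPM in invasive 2 against 455 CPM in control 2. The intervals cover counting error only.

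**Figure D3:**
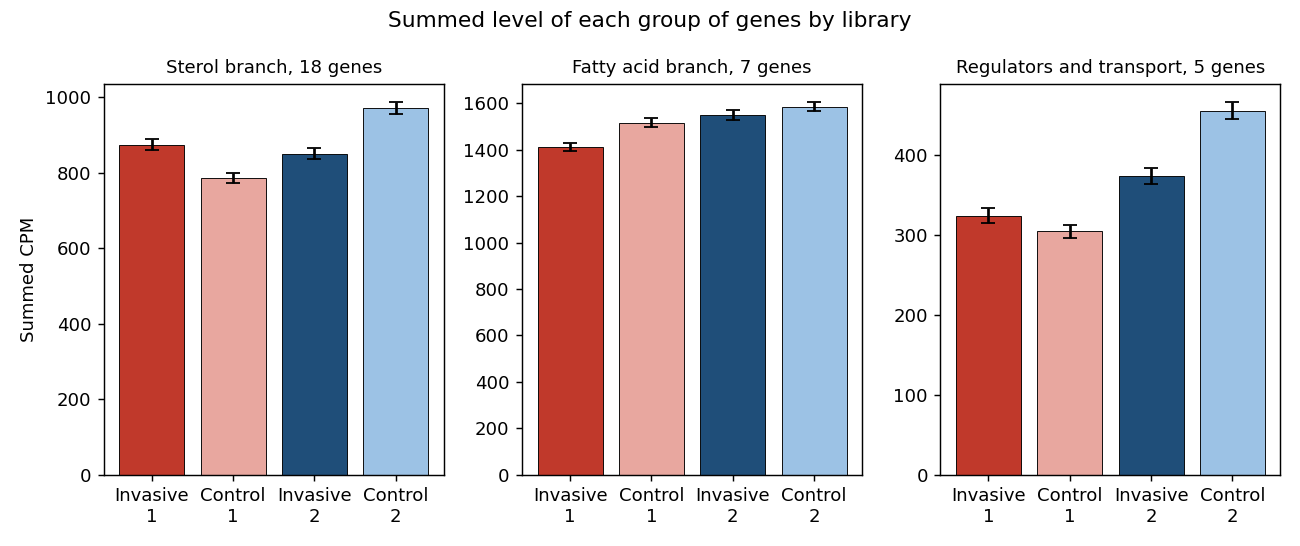
Summed CPM of the 18 sterol, 7 fatty acid and 5 regulator and transport genes in each library, with Wilson 95% counting intervals as error bars. The sterol sum is lowest in control 1 (786 CPM) and highest in control 2 (972 CPM), with the invasive libraries between.

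Per kilobase of annotated exon (GENCODE 29), ACLY had the highest level of the set, at 116 to 144 CPM per kb over the 4 libraries. SCD followed at 46.6 to 73.0 and INSIG1 at 31.3 to 56.9 CPM per kb, ranges that overlap each other. The INSIG1 range also overlaps that of EBP (28.2 to 36.1 CPM per kb). At the low end were HSD17B7 (0.515 to 1.09), TM7SF2 (0.758 to 0.912), FADS2 (1.04 to 1.54) and CYP51A1 (1.13 to 1.65 CPM per kb), whose ranges overlap from each to the next except between TM7SF2 and FADS2. Order within these overlaps is not fixed by 4 libraries. Other annotated genes share 79.4% of the exon length of CYP51A1 on the same strand, and how shared reads were counted is not given. The deposited counts place the end of CYP51A1 at 92142952, and GENCODE 29 at 92134803. Its exon length and overlap thus rest on gene bounds other than those of its counts.

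For 22 of the 30 genes the term for the pair was larger in size than the term for the population (47.5% of all genes). In the same fit, the term for pair 2 over pair 1 called 0 of the 30 (0.0984% of all genes), the smallest adjusted p being 0.107, for INSIG1. Before adjustment, 9 genes were higher in pair 2 at p under 0.05 (7.24% of all genes) and 2 were lower, PMVK and FDPS (7.58%). DESeq2 called 1 gene, INSIG1 (adjusted p = 0.0128). In the edgeR fit INSIG1 was higher in pair 2 by 0.70 ± 0.11 on the log2 scale (SE), MSMO1 by 0.69 ± 0.14 and HMGCS1 by 0.57 ± 0.14. MSMO1 had 63.7 CPM in invasive 2 and 73.6 CPM in control 2, against 47.0 CPM in invasive 1 and 38.5 CPM in control 1. SCD, STARD4, FADS1, SQLE, IDI1 and ELOVL6 followed with 0.47, 0.46, 0.45, 0.43, 0.40 and 0.30, which brings the number to 9.

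Both libraries of pair 2 were above both of pair 1 for 11 genes (19.4% of all genes): these 9 together with SC5D and CYP51A1. Both were below for ACAT2, PMVK, FDPS, EBP and ACACA, 5 of 30 (19.0%). Between invasive and control populations, by contrast, the libraries did not overlap for 6 of 30, against 43.4% of all genes: MVD, INSIG2 and FADS2 higher and HSD17B7, SREBF1 and FASN lower. Control 2 was the highest of the 4 libraries for 15 of the 30 (25.1% of all genes). They were 9 of the 18 sterol genes, 3 of the 7 fatty acid genes, and SREBF2, INSIG1 and STARD4. Population and pair both enter the fit, yet pair 2 differs from pair 1 in whatever the experiments did not share, and these cannot be told apart. The cell cycle genes also differed between the pairs, with a median log2 fold change of −0.30 for pair 2 over pair 1.

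**Figure D4:**
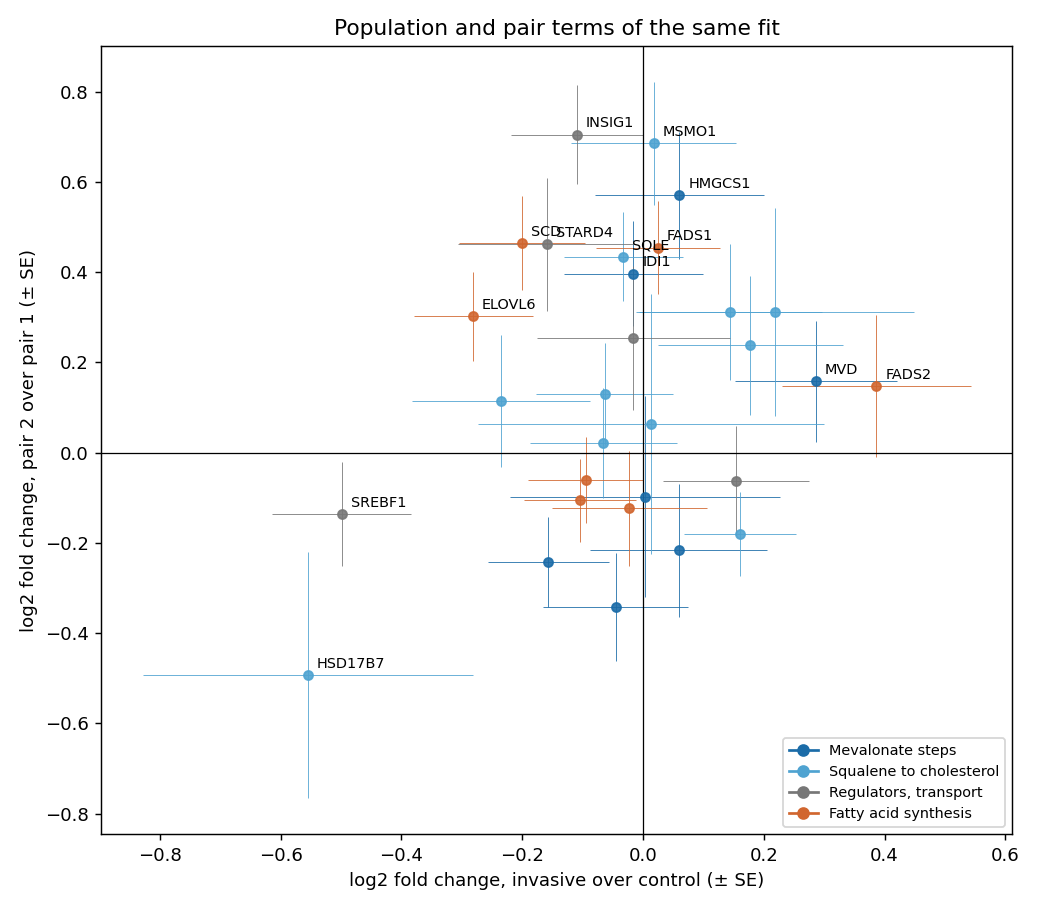
Log2 fold change of each gene for invasive over control (horizontal) and for pair 2 over pair 1 (vertical) from the same fit, with SE as bars and colours for the steps of the pathway. INSIG1, MSMO1 and HMGCS1 sit high near the vertical axis (0.70, 0.69 and 0.57), and SREBF1 and HSD17B7 sit left (−0.50 and −0.56).

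Neighbouring pathways were read from 8 lists of 116 genes, 95 of them tested, and none was called. Before adjustment, 11 were higher at p under 0.05 (9.82% of all genes) and 9 were lower (8.41%). Of the 22 further fatty acid genes tested, 4 were higher and 3 lower at that level, with ACACB, the acetyl-CoA carboxylase at the mitochondrial membrane, at 0.54 ± 0.12 (SE, adjusted p = 0.115), the desaturase SCD5 at 0.48 ± 0.13 (0.158) and the citrate carrier SLC25A1 at 0.34 ± 0.097 (0.167). ACACB had 36.5 CPM in invasive 1 against 25.4 CPM in control 1, and 34.9 CPM in invasive 2 against 23.0 CPM in control 2, so its groups did not overlap, unlike those of ACACA. Fatty acid oxidation genes numbered 18, of which 11 were higher in both pairs (33.4% of all genes) and 2 were higher at an unadjusted p under 0.05, PPARA (0.38) among them, with ACADM at −0.26.

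At an unadjusted p under 0.05, the 10 sterol uptake and transfer genes tested had 1 higher, LRPAP1 (0.27), against 9.82% of all genes. They had 1 lower, NPC1, which exports cholesterol from lysosomes, against 8.41%. NPC1 had 299.1 CPM in invasive 1 against 354.5 CPM in control 1, and 252.2 CPM in invasive 2 against 431.0 CPM in control 2 (log2 fold change −0.53 ± 0.14, SE, adjusted p = 0.150), and NPC2 was at 0.23. Of 9 genes of oxysterol response and sterol efflux, ABCA1, the cholesterol efflux pump, was lower at −0.68 (adjusted p = 0.241), with 148.2 CPM in invasive 1 against 311.3 CPM in control 1 and 252.6 CPM in invasive 2 against 302.3 CPM in control 2. CYP46A1, the cholesterol 24-hydroxylase of neurons, was at 1.8 (adjusted p = 0.137) from 26 and 15 counts in invasive 1 and invasive 2 and 8 and 5 in control 1 and control 2.

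Among 11 genes that use the isoprenoid chain for other products, 4 were lower and 0 higher at an unadjusted p under 0.05. Of all genes, 8.41% were lower and 9.82% higher at that level. The 3 with the smallest p in this list were PDSS1 (−0.50) and COQ2 (−0.35) of ubiquinone synthesis and RABGGTB (−0.26). RABGGTB encodes a subunit of the enzyme that prenylates Rab proteins. The 9 lipid droplet genes tested had 2 higher (9.82% of all genes), the lipases PNPLA3 (0.48) and PNPLA2 (0.29), beside DGAT2 at −0.34. The 11 genes of SREBP processing had 0 at that level in either direction, with MBTPS1, the site-1 protease of SREBP, at 0.18 and PAQR3 at −0.18. The 5 other sterol genes tested had 1 higher (9.82% of all genes), FAXDC2 (0.70), and C14orf1 was at 0.24.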

How the data were processed

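Gene counts came from 4 strand-specific mRNA libraries of U87MG populations. Per the file headers, the authors deposited raw read counts, whole numbers listed by Ensembl gene. A second deposited file per library holds normalized values rounded to whole numbers, a score used in 1 alternative, whose method the sources used here do not give. The submitters' processing notes name HTSeq, DESeq2, Bowtie, TopHat2 2.0.12 and bcl2fastq 1.8.4, and the build GRCh38, without roles or order.

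The 29387 genes listed in all 4 count files were analysed, of which filterByExpr (minimum count 10, minimum total 15) left 14231. The main test was edgeR's two-sided quasi-likelihood F test (edgeR 4.0.16, limma 3.58.1, R 4.3.3; TMM, robust prior), with population and pair as terms and Benjamini-Hochberg adjustment over all genes at 0.05. Library sizes were sums over the kept genes. Taking sums over all genes instead was also run, and the choice between them was made with both results seen. DESeq2 1.42.0 was an alternative. The fit has 1 residual degree of freedom and a median prior of 5.45, and the biological coefficient of variation was 12.2%. It was tested on simulated data. The design text analyses each control with the invasive population of its number, which is why the pair is a block. Deviations of same-numbered libraries correlated across genes at 0.283. P-values rest on how far the pairs disagree and on spread borrowed from other genes, and they cover only these populations.

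Within a pair, log2 differences of log2 CPM (prior count 2) carry exact binomial counting intervals and no test. CPM printed as levels use library totals. A count of 0 allows up to 3 counts, and intervals cover counting error only. Exon lengths and overlaps came from GENCODE 29.

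The members and lists were chosen with earlier results of these data known. Genes given with counts are the 4 regulators, HMGCS1, SQLE, ACACA, FASN and SCD, and any gene past 1.5-fold within a pair or called. Other genes are given in short. Of each neighbouring list, up to 3 genes with the smallest unadjusted p are named, except that a gene in each of 4 lists is not reported here.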

Additional observations from a re-analysis of the deposited data

Results flagged for a closer look

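For 6 of the 30 genes the invasive population differed from its control in opposite directions in the pairs, each beyond the 95% counting interval. This way of picking them was chosen after the data were seen, and the difference between the pairs was not tested. HMGCS1 differed by 0.29 in pair 1 and by −0.16 in pair 2 (log2, invasive minus control). MVK, mevalonate kinase, differed by 0.42 and −0.43, and FDFT1, squalene synthase, by 0.10 and −0.23. MSMO1 differed by 0.25 and −0.21. SREBF2, the transcription factor gene, differed by 0.29 and −0.32. ACLY differed the other way round, by −0.22 in pair 1 and 0.18 in pair 2. By the same measure, 5 genes differed in 1 direction in both pairs: EBP and FADS2 were higher, and SREBF1, ELOVL6 and SCD were lower. These intervals leave out the variation between cultures. How many of all genes tested met either measure was not counted, so neither 6 nor 5 of 30 can be called unusual.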

How the results depend on the processing

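Counts of called genes moved most. Invasive against control gave 39 of the 14231 genes tested, and 89 (80 higher, 9 lower) with DESeq2 size factors. It gave 1453 (760 and 693) without the low-count filter, where 25577 genes were tested, for the pair term too. It gave 171 (142 and 29) with DESeq2, and 2 with no replicate block. Fits that left out 1 library, without a block, gave 4 to 170 (170 without control 1). Library sizes over all genes gave 32. Among the 30 genes the count stayed at 0 except for 1, SREBF1, without the filter. The pair term gave 14 of all genes, and 33, 962 and 86 under the first 3 of these settings, 0 without a population term and 0 to 176 without 1 library. The 30 gave 0, but 8 without the filter, 1 with DESeq2 and 0 to 1 without 1 library, the 1 being INSIG1 without invasive 2.

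The fatty acid median of pair 1 (−0.11) was −0.075 by library totals, −0.074 by the authors' scores and −0.019 as a mean. The gap between the branch medians in pair 1 (0.28) was 0.17 with means, 0.19 by the authors' scores and 0.27 to 0.28 in the other alternatives. Both branches kept the sign of their median in each pair in the 7 alternatives run. Past 1.5-fold in either direction within a pair lay 0 genes in pair 1 and 2 in pair 2 (11.8% and 16.9% of all genes), SREBF1 and HSD17B7. At the lower fold threshold tried there were 5 in pair 1 and 6 in pair 2. The share of all genes past that lower threshold was not counted, so neither count can be called many or few. At 1.5-fold the authors' scores left 1 in pair 2, where only 27 of the 30 genes had scores in both libraries. The fatty acid sum of control 1 was 1537 CPM by TMM.

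Without 1 library, the log2 fold change ran from −0.33 to 0.46 for HMGCS1, −0.26 to 0.20 for SQLE, −0.29 to 0.26 for SREBF2, −0.50 to 0.33 for INSIG1, −0.47 to 0.082 for SCD and −1.01 to −0.18 for HSD17B7. It kept its sign for SREBF1 (−0.64 to −0.38), ACACA (−0.18 to −0.041), FASN (−0.14 to −0.054) and INSIG2 (0.077 to 0.23). These fits have no block, so the pair difference enters them. The cause of the other changes was not tested. Counts of 34 to 93 limit HSD17B7, CYP51A1 and TM7SF2.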
